A study of Homo sapiens with 6 samples.

Results

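The 49 genes described here encode the machinery that copies DNA and the factors that open and supply S phase. They were chosen by name, from their known roles, and 48 of them were matched by symbol among the 57820 genes of the count table. UHRF1 matched no gene and has no value. The counts are from bulk RNA sequencing of motor neurons made from the established human embryonic stem cell line H9, with the genotype given as WT. Progenitors in both groups had been differentiated with 0.01 µM RA (retinoic acid) and 0.1 µM SAG, an agonist of Hedgehog signalling. The 3 libraries of one group were kept at normal gravity (NG), and the 3 of the other were turned on a 2D clinostat to simulate microgravity (SMG), a device that keeps turning a culture relative to the pull of gravity. All libraries come from 1 cell line, the length of clinostat treatment was not stated in the labels, and the labels do not say that replicates were separate cultures, so p-values measure only the spread between these libraries.

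Replication is prepared in G1, when the origin recognition complex, CDC6 and CDT1 load the ring-shaped MCM helicase onto origins. At S phase entry, cyclin E with its kinase and the E2F transcription factors turn on the next steps, CDC45 and the GINS complex activate the helicase, and the polymerases copy both strands with the sliding clamp PCNA. Neurons leave the cell cycle for good when they are born, so in a differentiating spinal culture these genes are known mainly from the dividing progenitors. In bulk RNA, fewer dividing cells and less RNA per dividing cell cannot be told apart.

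The promoters of several members are shown first because replication genes are known to share binding sites for E2F factors. Each line gives the 250 bases before the start site, from RefSeq on GRCh38.p14, 5′ to 3′ on the gene's strand. Capitals mark matches to the E2F words TTTCCCGC, TTTCGCGC, TTTGCCGC or TTTGGCGC on either strand. POLE and RRM1 had the highest and the lowest log2 fold change among the members before any correction for base composition, ORC6 and ORC3 are subunits of 1 complex that moved in opposite directions, and MCM6 and MCM7 are subunits of the helicase ring with more than 1 match each. The windows are chr12:132687343-132687592, minus strand for POLE, chr11:4094435-4094684, plus strand for RRM1, chr16:46689409-46689658, plus strand for ORC6, chr6:87589885-87590134, plus strand for ORC3, chr2:135876444-135876693, minus strand for MCM6 and chr7:100101398-100101647, minus strand for MCM7.
POLE: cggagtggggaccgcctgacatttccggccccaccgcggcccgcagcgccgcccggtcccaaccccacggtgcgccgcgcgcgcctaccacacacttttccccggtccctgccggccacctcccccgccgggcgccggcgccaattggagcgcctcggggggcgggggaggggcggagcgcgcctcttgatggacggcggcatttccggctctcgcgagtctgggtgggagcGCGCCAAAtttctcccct
RRM1: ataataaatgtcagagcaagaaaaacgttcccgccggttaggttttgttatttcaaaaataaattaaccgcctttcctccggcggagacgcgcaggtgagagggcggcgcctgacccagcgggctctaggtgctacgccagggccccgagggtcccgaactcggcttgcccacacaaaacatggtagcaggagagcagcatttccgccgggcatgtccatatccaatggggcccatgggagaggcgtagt
ORC6: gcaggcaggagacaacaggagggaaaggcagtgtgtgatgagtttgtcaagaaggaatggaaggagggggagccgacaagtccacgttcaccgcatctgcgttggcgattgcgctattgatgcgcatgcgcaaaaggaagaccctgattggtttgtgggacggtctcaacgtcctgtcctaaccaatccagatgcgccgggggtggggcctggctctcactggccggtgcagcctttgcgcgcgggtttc
ORC3: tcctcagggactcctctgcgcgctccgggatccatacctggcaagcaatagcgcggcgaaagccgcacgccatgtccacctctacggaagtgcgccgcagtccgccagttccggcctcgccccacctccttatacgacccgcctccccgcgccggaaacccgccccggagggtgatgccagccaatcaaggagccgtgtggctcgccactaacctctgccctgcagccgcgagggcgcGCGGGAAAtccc
MCM6: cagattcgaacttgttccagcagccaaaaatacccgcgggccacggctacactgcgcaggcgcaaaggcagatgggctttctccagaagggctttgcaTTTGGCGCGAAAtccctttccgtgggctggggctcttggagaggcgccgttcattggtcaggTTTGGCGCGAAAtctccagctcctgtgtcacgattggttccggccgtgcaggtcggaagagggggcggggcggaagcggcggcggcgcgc
MCM7: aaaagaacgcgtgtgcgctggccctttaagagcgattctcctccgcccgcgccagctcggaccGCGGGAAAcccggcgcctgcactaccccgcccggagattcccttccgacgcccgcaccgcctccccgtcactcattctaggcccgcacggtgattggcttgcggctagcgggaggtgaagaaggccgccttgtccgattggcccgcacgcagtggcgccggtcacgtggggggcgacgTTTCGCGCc
For contrast, the promoter of TOP2A, a topoisomerase gene of the mitosis list below, is shown from chr17:40417897-40418146, minus strand. There the capitals mark TTTGAA or TTCGAA on either strand, the words of the CHR, an element known from genes of G2 and mitosis.
TOP2A: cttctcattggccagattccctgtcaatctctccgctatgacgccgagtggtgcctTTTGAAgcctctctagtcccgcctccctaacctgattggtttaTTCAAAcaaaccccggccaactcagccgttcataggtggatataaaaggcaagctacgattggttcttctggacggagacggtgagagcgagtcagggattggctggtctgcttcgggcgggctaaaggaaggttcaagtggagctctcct

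The E2F words were common among the members. In windows from 250 bases before to 50 bases after the start, at least 1 match was found for 19 of the 41 members with both a window and a count (46.3%). Over the 11931 tested genes with a window the share was 5.03%, and in all 35116 windows listed it was 3.31%. Where a gene had several windows, the first listed was used, and 42 of the 49 members had one. MCM6 had 4 overlapping matches in 2 clusters, starting at positions -152, -148, -90 and -86 from the start site, and MCM7 had 2, at -187 and -9. CCAAT, searched on both strands as the core of the NF-Y box, was in 23 of the 41 members (56.1%) against 36.3% of tested genes. The CHR words were in 2 of the 41 members (4.88%), RRM1 and MCM6, against 11.5% of tested genes. None of the E2F, CCAAT and CHR words contains another.

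Among the printed promoters, RRM1 and ORC6 held no E2F word and POLE and ORC3 held 1 each, so a member of each kind was called in each direction. Over the members, E2F words were present in 2 of 3 called higher, 5 of 11 called lower and 12 of 27 not called. These matches describe the letters of the windows, and binding was not measured.

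**Figure D1:**
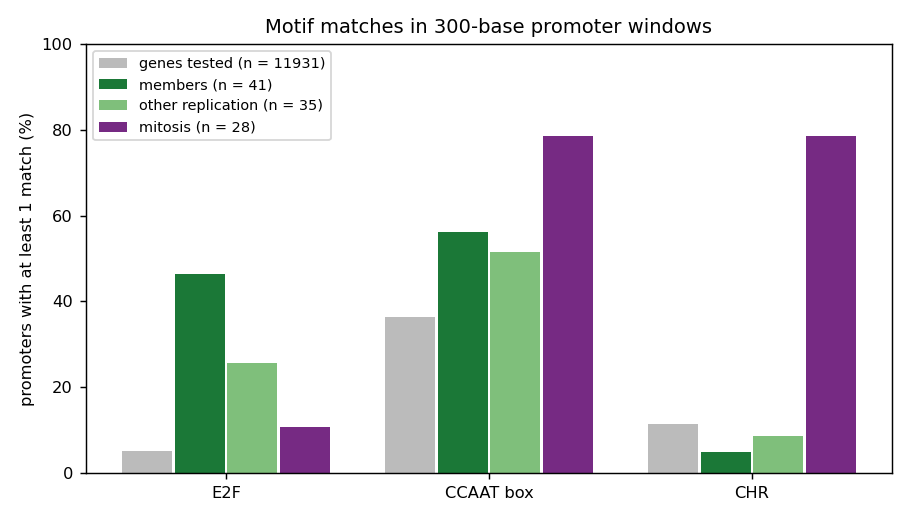
Share of promoter windows (percent, vertical axis) with at least 1 match to the E2F, CCAAT or CHR words, for tested genes, the members, other replication genes and mitosis genes. E2F words were most frequent in the members (46.3%) and CHR words in mitosis genes (78.6%).

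Total counts ranged from 16329907 to 22685870 per library. Levels are given as TMM-scaled CPM, that is, each count set against its library's total after that total was multiplied by a TMM factor (0.99 to 1.01). Differences are given as log2 fold changes, SMG minus NG, ± SE (3 libraries per group). A gene was called higher or lower where the Benjamini-Hochberg adjusted p of edgeR's quasi-likelihood test, fitted over all 17803 genes that passed the filter on low counts, was under 0.05. All 48 matched members passed that filter, with means of at least 8.50 CPM in both groups. The motor neuron markers were present, with ISL1 at 103 CPM and SLC5A7 at 311 CPM in NG. NANOG, which marks pluripotent cells, had a count of 0 in at least 1 library and POU5F1, another such marker, was at 0.0880 CPM in NG. Other genes of that marker list were present, LIN28A at 56.2 CPM and DPPA4 at 29.7 CPM in NG. Progenitor and mitotic genes were present as well, with SOX2 at 270 CPM and MKI67 at 310 CPM in NG.

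The replication genes changed little. Of the 48 members, 13 were lower in SMG (27.1%, against 18.5% of all genes tested) and 4 were higher (8.33%, against 17.3%), and 31 were not called. The 17 calls are 35.4% of the members, close to the 35.8% of all genes tested that were called. The median log2 fold change was -0.077, beside -2e-04 over all genes tested. The lowest was -0.28 (RRM1) and the highest 0.36 (POLE). With the length and GC trend described below removed, POLA2 and RRM1 were lowest (both -0.20) and ORC6 was highest (0.35). In all, 2 of 48 members differed by 1.2-fold or more, against 29.2% of all genes tested and 18.2% of those with a mean of at least 8 CPM. Summed over the members, the level was 2290 ± 20.6 CPM in NG and 2200 ± 6.16 CPM in SMG (SD), a change of -3.82%. The groups did not overlap for 22 members with SMG below NG and 6 with SMG above, where 23.6% and 22.6% of all genes tested did so. The count of 13 lower members fell to 8 without NG replicate 1 and to 7 without SMG replicate 3, and DESeq2 called 8 lower. Over all genes the count of lower calls fell as well, from 3296 to 2630, 2549 and 2270 in the same order.

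The members called lower and those called higher also differed in base composition. The longest transcripts of the 13 lower members had a median GC content of 43.5% (39.4% to 49.8%), and those of the 4 higher members 56.0% (47.5% to 57.0%). Those of the 31 members not called had 48.5% (36.9% to 65%), a range that spans both. A relation between GC content and the calls was not tested. After each library's trend with transcript length and GC content was removed, 7 members were lower (15.1% of all genes tested) and 2 were higher (15.8% of all). The members' median was then -0.019, beside 0.0088 over all genes tested in that fit. RRM1, RFC1, RPA1 and TYMS stayed lower and POLE and ORC6 stayed higher in that fit, while MCM3, MCM7 and POLA2, not called above, were lower there. The same 6 genes, RRM1, RFC1, RPA1, TYMS, POLE and ORC6, were the only members called in the same direction under all 18 alternatives that were run. How many of all genes tested held under the same 18 was not counted, so this number has no background to be read against. Whether base composition or the clinostat moved the other calls was not tested.

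**Figure D2:**
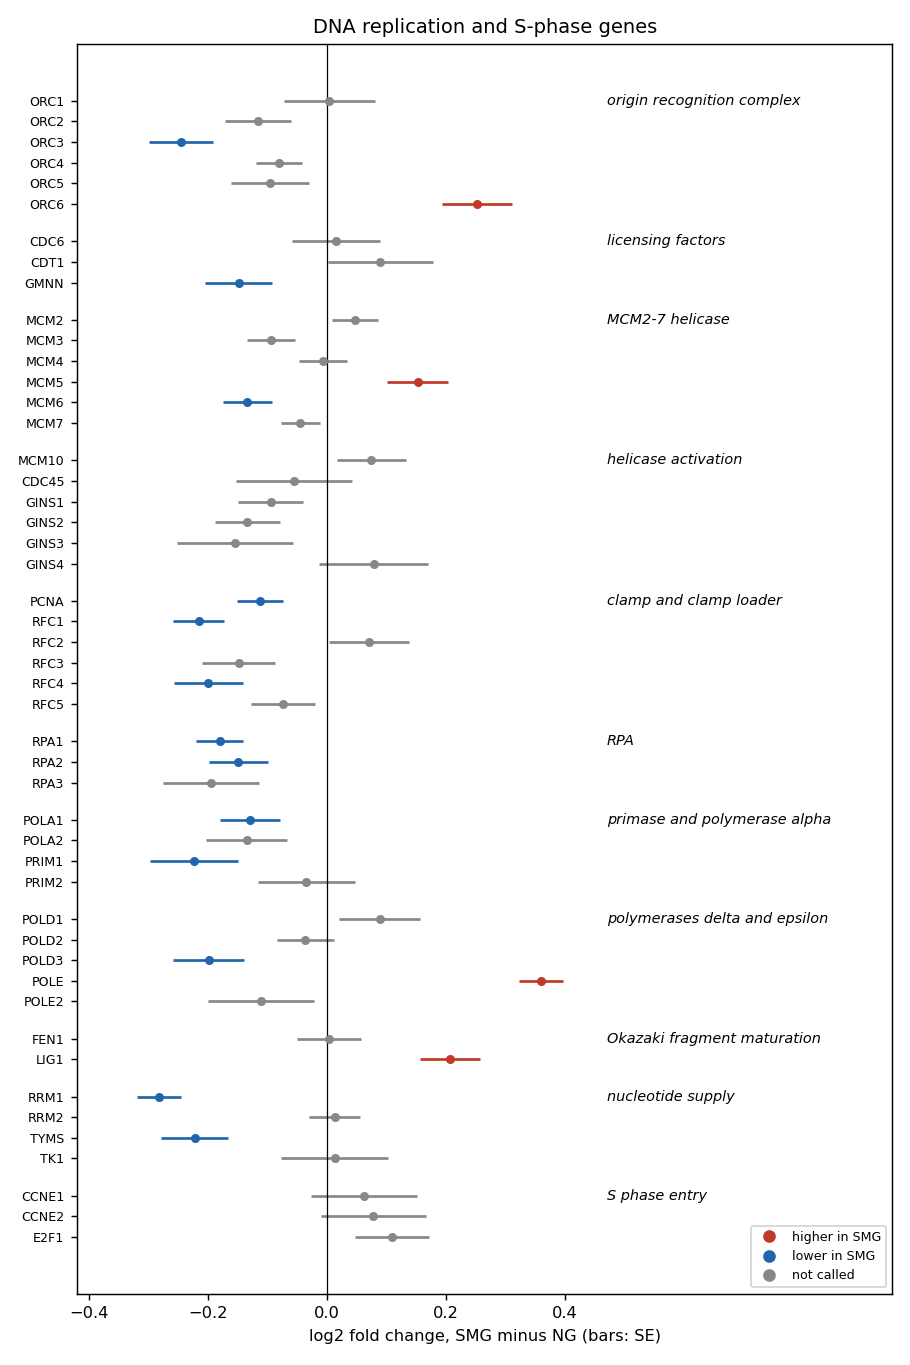
Log2 fold change of each of the 48 members (horizontal axis, SMG minus NG, bars SE, n = 3 per group), ordered by role, with called genes in colour. RRM1 is lowest at -0.28 and POLE highest at 0.36.

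**Figure D3:**
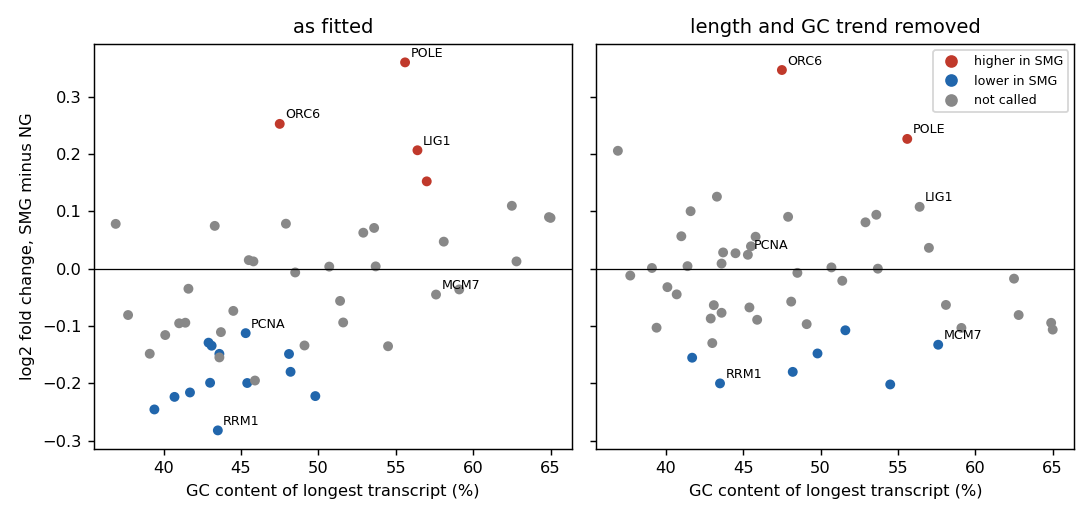
Log2 fold change of the members (vertical axis) against the GC content of the longest transcript (percent), as fitted on the left and with the length and GC trend removed on the right. The lower members on the left lie at 39.4% to 49.8% GC, and POLE and ORC6 remain the 2 called higher on the right.

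The origin recognition complex marks the sites where replication can start. Of its 6 subunits 1 was called lower and 1 higher (16.7% each), near the 18.5% and 17.3% of all genes tested. ORC3, a core subunit, was at 40.9, 40.8 and 43.5 CPM in NG and 36.8, 34 and 34.7 CPM in SMG. Every SMG library was below every NG library (log2 fold change -0.25 ± 0.053, adjusted p = 0.000637), but the call ended with the length and GC trend removed (-0.10, adjusted p = 0.112). ORC6, the smallest subunit, was at 25.2, 23.2 and 23.4 CPM in NG and 27.8, 28.7 and 29.3 CPM in SMG. It rose, with all SMG libraries above all NG libraries (0.25 ± 0.059, adjusted p = 0.00131), and it rose further with the trend removed (0.35, adjusted p = 1.67e-05). ORC4, an ATP-binding subunit, was at 92.6, 95.5 and 96.1 CPM in NG and 91.2, 88.6 and 88.6 CPM in SMG and did not pass (-0.081 ± 0.038, adjusted p = 0.103). ORC2, a core subunit, was at 31, 31.8 and 30.6 CPM in NG and 28.2, 28.2 and 29.8 CPM in SMG and did not pass either (-0.12 ± 0.056, adjusted p = 0.107), although SMG lay below NG for both. ORC5 was at -0.095 ± 0.065. ORC1, the subunit whose level is known to follow the cell cycle, was at 0.0036 ± 0.077 with a 95% interval of -0.15 to 0.16.

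The licensing factors load the helicase and stop it being loaded again. CDC6, the ATPase that works with the origin complex, was at 15.6, 15.6 and 15.2 CPM in NG and 15.3, 15.6 and 15.9 CPM in SMG. Its groups overlapped, and the 95% interval of its log2 fold change was -0.14 to 0.17 (0.015 ± 0.073, adjusted p = 0.899). CDT1, its partner in loading, was at 11.4, 13.7 and 11.8 CPM in NG and 12.9, 14 and 12.2 CPM in SMG, again with overlapping groups (0.09 ± 0.089, adjusted p = 0.465). GMNN, geminin, the inhibitor of CDT1, was at 31, 30.9 and 31.9 CPM in NG and 27.2, 29.5 and 27.9 CPM in SMG. It was called lower (-0.15 ± 0.056, adjusted p = 0.0387). The call ended without NG replicate 1, 2 or 3 or SMG replicate 1 or 3 (adjusted p = 0.0562 to 0.15) and the value turned to 0.0089, adjusted p = 0.919 with the trend removed. It also ended with DESeq2, with library size scaling, with no filter on low counts and with protein-coding genes alone.

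The 6 subunits of the MCM2-7 ring, which are needed in equal numbers in the helicase, were measured between 40.9 CPM (MCM5) and 249 CPM (MCM7) in NG. Per kilobase of longest transcript, MCM7 stood apart at 80.8 in NG and 78.3 in SMG CPM per kb. MCM2, MCM3, MCM4 and MCM6 lay between 24.0 and 27.0 CPM per kb in NG, and MCM5 was lowest at 8.89 in NG and 9.9 in SMG. MCM6 was at 86, 91.2 and 91.9 CPM in NG and 81.4, 79.3 and 84 CPM in SMG and fell (-0.13 ± 0.041, adjusted p = 0.0114), and the call ended without SMG replicate 2 (adjusted p = 0.0748) and with the trend removed (-0.064, adjusted p = 0.2). MCM5 was at 43.2, 39.6 and 39.8 CPM in NG and 45.8, 45.4 and 45.4 CPM in SMG and rose (0.15 ± 0.051, adjusted p = 0.0202). That call ended without NG replicate 2 or SMG replicate 1, 2 or 3 (adjusted p = 0.0553 to 0.0795), with the trend removed (0.036, adjusted p = 0.612) and with DESeq2. MCM3 was at 85.4, 85.6 and 88.9 CPM in NG and 79.5, 82.5 and 81.4 CPM in SMG, with SMG below NG in every library, and did not pass (-0.094 ± 0.04, adjusted p = 0.0664). MCM2 was at 94.3, 95.3 and 90.5 CPM in NG and 95.2, 99.8 and 94.6 CPM in SMG, with overlapping groups (0.047 ± 0.039, adjusted p = 0.375). MCM7 was at 247, 252 and 249 CPM in NG and 235, 244 and 246 CPM in SMG, below NG in every SMG library, and did not pass (-0.045 ± 0.033, adjusted p = 0.304), but was called lower with the trend removed (-0.13, adjusted p = 0.00053). MCM4 was at -0.0066 ± 0.04. The summed level of the ring was 657 to 665 CPM in NG and 641 to 653 CPM in SMG.

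Of the factors that turn the loaded ring into a working helicase, 0 of 6 were called by edgeR's test, 1 had an unadjusted p under 0.05, and DESeq2 and limma-voom called 0 each. GINS2 was at 31.4, 31 and 32.1 CPM in NG and 28.4, 28.6 and 29.1 CPM in SMG and came closest (-0.13 ± 0.054, adjusted p = 0.0556). GINS1 was at 31.4, 31 and 31.3 CPM in NG and 29.8, 29.3 and 28.7 CPM in SMG, below NG in every SMG library (-0.094 ± 0.054, adjusted p = 0.186). GINS3, of the same complex, was at 10.3, 9.42 and 8.53 CPM in NG and 9.11, 8.08 and 8.32 CPM in SMG with overlapping groups (-0.15 ± 0.098, adjusted p = 0.231). MCM10, which helps to start unwinding, was at 26, 26.1 and 24.9 CPM in NG and 27.2, 27.4 and 26.5 CPM in SMG. SMG was above NG in every library, but the difference did not pass (0.075 ± 0.058, adjusted p = 0.335). CDC45, the third part of the active helicase, was at -0.056 ± 0.097 and GINS4 at 0.078 ± 0.092. An adjusted p over the threshold does not show that these levels were equal, and the 95% interval for GINS2 was -0.25 to -0.022.

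Of the sliding clamp and its loader, 3 of 6 genes were called lower, where 18.5% of all genes tested were. Without NG replicate 1, without SMG replicate 3 or with the trend removed 1 of 6 was, and in the last of these the median of the group turned from -0.13 to 0.013. RFC1, the large subunit of the loader, was at 94.3, 88.3 and 95.8 CPM in NG and 83.6, 79.3 and 77.1 CPM in SMG. It fell, and SMG lay below NG in every library (-0.22 ± 0.043, adjusted p = 0.000214, and -0.16, adjusted p = 0.00145 with the trend removed). RFC4, a small subunit of the loader, was at 36.5, 34.1 and 33.1 CPM in NG and 31.7, 30.5 and 28.5 CPM in SMG and fell (-0.20 ± 0.058, adjusted p = 0.00795), a call that ended without NG replicate 1 or SMG replicate 3 (adjusted p = 0.0713 to 0.0877) and with the trend removed (-0.068, adjusted p = 0.384). PCNA, the clamp itself, was the most highly expressed member per kilobase (85 in NG and 78.8 in SMG CPM per kb). It was at 120, 115 and 112 CPM in NG and 108, 109 and 105 CPM in SMG and was called lower (-0.11 ± 0.038, adjusted p = 0.0218). That call ended without NG replicate 1 or SMG replicate 1 or 3 (adjusted p = 0.0519 to 0.191), and the value turned to 0.024, adjusted p = 0.641 with the trend removed. It also ended with DESeq2, with library size scaling and with no filter on low counts. RFC3, another small subunit, was at 25.7, 27 and 24.7 CPM in NG and 23.6, 22.4 and 23.9 CPM in SMG and did not pass (-0.15 ± 0.061, adjusted p = 0.0581), but was called lower without NG replicate 3 (-0.17, adjusted p = 0.0335). RFC5 was at -0.074 ± 0.054 and RFC2 at 0.071 ± 0.067, and with the trend removed both values were positive (0.027 and 0.094).

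Replication protein A coats single-stranded DNA behind the helicase. For all 3 of its subunits every SMG library was below every NG library, as for 23.6% of all genes tested. Of the 3, 2 were called lower (66.7%, against 18.5% of all genes tested). With the trend removed 1 was, where 15.1% of all genes tested were lower. RPA1, the large DNA-binding subunit, was at 103, 95.4 and 101 CPM in NG and 87.7, 89.4 and 88.1 CPM in SMG and fell (-0.18 ± 0.04, adjusted p = 0.000682, and -0.18, adjusted p = 0.000163 with the trend removed). RPA2, the subunit phosphorylated in S phase, was at 55.5, 51.1 and 56.3 CPM in NG and 49.7, 48.3 and 49 CPM in SMG and fell (-0.15 ± 0.049, adjusted p = 0.018). That call ended without NG replicate 1 or SMG replicate 2 or 3 (adjusted p = 0.0554 to 0.0964), with the trend removed (-0.057, adjusted p = 0.362) and with DESeq2. RPA3, the small subunit, was at 15.4, 15 and 17.7 CPM in NG and 14, 14.3 and 13.7 CPM in SMG and did not pass (-0.20 ± 0.08, adjusted p = 0.0576), but was called lower without NG replicate 2 (-0.24, adjusted p = 0.0349).

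Primase and polymerase alpha lay the RNA-DNA primer of each new strand. Of their 4 subunits 2 were called lower (50%, against 18.5% of all genes tested). With the trend removed 1 was, which was POLA2 (-0.20, adjusted p = 0.016), where 15.1% of all genes tested were lower. PRIM1, the catalytic primase subunit, was at 18.4, 17.7 and 20.5 CPM in NG and 16.2, 15.6 and 16.7 CPM in SMG and fell (-0.22 ± 0.073, adjusted p = 0.0179). The call ended without NG replicate 3 or SMG replicate 1 or 2 (adjusted p = 0.0505 to 0.0957), with the trend removed (-0.045, adjusted p = 0.663) and with DESeq2. The exons of PRIM1 share 14.9% of their bases with an annotated gene on the same strand. POLA1, the catalytic polymerase subunit, was at 42.4, 42.1 and 43.3 CPM in NG and 38.3, 39.4 and 39.1 CPM in SMG and fell by a small margin (-0.13 ± 0.05, adjusted p = 0.0442). That call ended without NG replicate 1, 2 or 3 or SMG replicate 1, 2 or 3 (adjusted p = 0.0631 to 0.125), with DESeq2 and with the trend removed (-0.087, adjusted p = 0.164). In all it was lost in 14 of the 18 alternatives. POLA2, its accessory subunit, was at 24.7, 22.2 and 22.6 CPM in NG and 19.3, 22.4 and 21.7 CPM in SMG, with overlapping groups (-0.14 ± 0.069, adjusted p = 0.129), and its value is uncertain because 35.1% of its exon bases are shared with a gene on the same strand. PRIM2, the large primase subunit, was at 16.2, 15.4 and 15.7 CPM in NG and 14.6, 14.1 and 17.3 CPM in SMG, also with overlapping groups (-0.035 ± 0.082, adjusted p = 0.779), and its value turned to 0.10, adjusted p = 0.359 with the trend removed.

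POLE, the catalytic subunit of the leading-strand polymerase epsilon, rose by more than any other member in this fit. It was at 103, 98.6 and 96.5 CPM in NG and 129, 124 and 130 CPM in SMG, so that every SMG library exceeded every NG library by a clear margin (ratio 1.28, log2 fold change 0.36 ± 0.038, adjusted p = 1.67e-08). With the trend removed it was at 0.23, adjusted p = 2.02e-06. POLE2, a small subunit of the same enzyme, was at 10.6, 10.3 and 11.3 CPM in NG and 9.96, 9.83 and 9.98 CPM in SMG, on the other side of NG, and did not pass (-0.11 ± 0.088, adjusted p = 0.355). The other small subunits, POLE3 (-0.084 ± 0.046) and POLE4 (-0.035 ± 0.11), did not pass (adjusted p = 0.162 and 0.846). POLD3, an accessory subunit of the lagging-strand polymerase delta, was at 39.1, 35.7 and 43 CPM in NG and 33.8, 35.3 and 33.4 CPM in SMG and fell (-0.20 ± 0.059, adjusted p = 0.00945), and the call ended without NG replicate 3 or SMG replicate 3 (adjusted p = 0.0525 to 0.063) and with the trend removed (-0.13, adjusted p = 0.0668). POLD1, the catalytic subunit of polymerase delta, was at 27.6, 28 and 22.2 CPM in NG and 27.9, 27.8 and 27.2 CPM in SMG with overlapping groups (0.088 ± 0.069, adjusted p = 0.339), and POLD2 was at -0.036 ± 0.048.

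Of the enzymes that join Okazaki fragments, LIG1, the replicative DNA ligase, was at 41.2, 41.4 and 38.7 CPM in NG and 45, 47.7 and 47.3 CPM in SMG and rose (0.21 ± 0.051, adjusted p = 0.00208). That call ended with the trend removed (0.11, adjusted p = 0.0754) but held without each library in turn. FEN1, the flap nuclease that acts just before it, was at 38, 34.6 and 35.4 CPM in NG and 35.7, 36.1 and 36.7 CPM in SMG, with overlapping groups and a 95% interval of -0.11 to 0.11 (0.004 ± 0.054, adjusted p = 0.963).

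Among the enzymes of nucleotide supply, 1 of the 2 subunits of ribonucleotide reductase among the members was called lower, where 18.5% of all genes tested were. RRM1, the large subunit, was at 158, 149 and 146 CPM in NG and 127, 122 and 123 CPM in SMG, below NG in every SMG library (ratio 0.823, log2 fold change -0.28 ± 0.037, adjusted p = 7.49e-07, and -0.20, adjusted p = 1.78e-05 with the trend removed). RRM2, the small subunit whose level is known to rise in S phase, was at 66.4, 69 and 66 CPM in NG and 67.7, 68.7 and 66.6 CPM in SMG, with overlapping groups and a 95% interval of -0.075 to 0.10 (0.013 ± 0.043, adjusted p = 0.851). Its value is uncertain because 20.2% of its exon bases are shared with a gene on the same strand, and the difference between the subunits was not tested. RRM2B, the p53-inducible small subunit, fell from 64.3 ± 3.31 to 52 ± 0.0903 CPM (-0.30 ± 0.047, adjusted p = 1.08e-05). TYMS, thymidylate synthase, was at 39.4, 38.7 and 39.7 CPM in NG and 35.5, 31 and 34.6 CPM in SMG and fell (-0.22 ± 0.056, adjusted p = 0.0026). TYMS shares 39.1% of its exon bases with ENOSF1 on the opposite strand, and the labels do not say whether the counting used strand, so its value is uncertain. TK1, the thymidine kinase of S phase, was at 9.52, 10.4 and 9.69 CPM in NG and 9.77, 10.2 and 9.81 CPM in SMG with overlapping groups (0.013 ± 0.09, adjusted p = 0.931).

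Of the genes that open S phase 0 of 3 were called by edgeR's test, 0 had an unadjusted p under 0.05, and DESeq2 and limma-voom called 0 each. E2F1, the transcription factor, was at 23.4, 23.5 and 26.2 CPM in NG and 27.3, 25.5 and 26 CPM in SMG and did not pass (0.11 ± 0.062, adjusted p = 0.176), but was called higher without NG replicate 3 (0.16, adjusted p = 0.0419). With the trend removed its value turned to -0.017, adjusted p = 0.87. CCNE2, a cyclin E, was at 9.81, 10.6 and 10.2 CPM in NG and 10.9, 10.7 and 10.7 CPM in SMG, above NG in every SMG library and not past the threshold (0.078 ± 0.088, adjusted p = 0.53). CCNE1, the other cyclin E, was at 9.95, 10.2 and 9.63 CPM in NG and 9.96, 10.6 and 10.6 CPM in SMG with overlapping groups (0.063 ± 0.089, adjusted p = 0.627). Of CCNE2's exon bases, 37.0% are shared with INTS8 on the opposite strand.

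**Figure D4:**
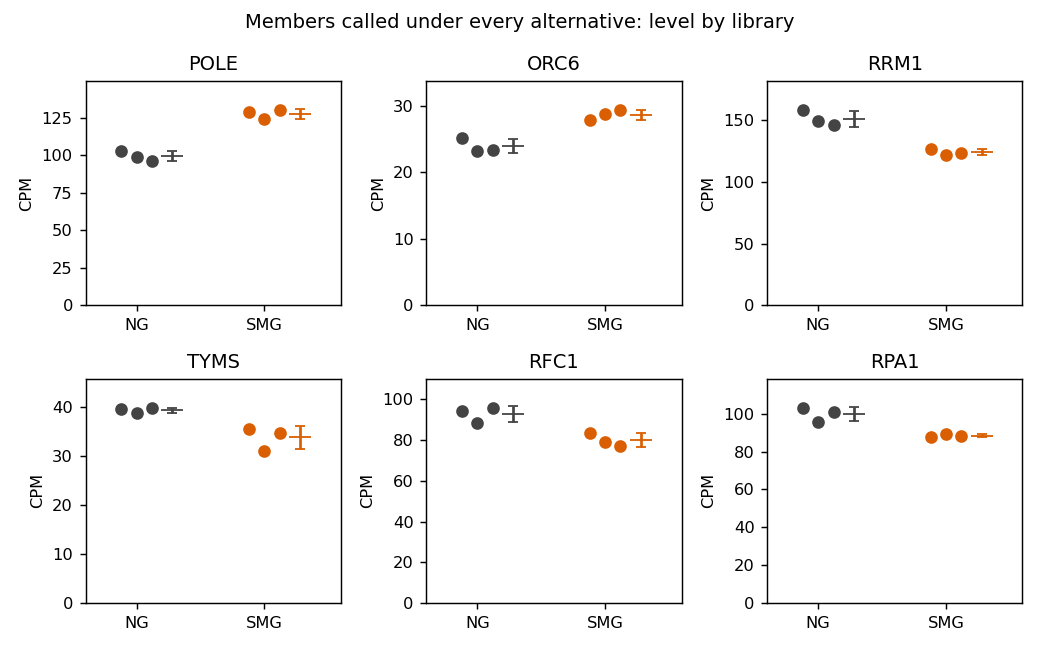
Level in CPM (vertical axes from 0) of the 6 members called under every alternative, 1 point per library, with mean and SD beside the points (n = 3 per group). In each panel the NG and SMG libraries do not overlap, and POLE and ORC6 are higher in SMG while RRM1, TYMS, RFC1 and RPA1 are lower.

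Other genes of replication, 42 in all, counted 11 lower and 7 higher in SMG and a median of -0.084. These are 26.2% and 16.7%, against 18.5% and 17.3% of all genes tested. Among the lower ones, RRM2B was joined by CDC7, the kinase that triggers origin firing (-0.22 ± 0.041, adjusted p = 9.73e-05), and WDHD1, which links polymerase alpha to the helicase (-0.27 ± 0.052, adjusted p = 0.00015). DBF4, the activating subunit of CDC7 and named after its values were seen, fell as well (-0.30 ± 0.057, adjusted p = 0.00016). Among the higher ones, RECQL4, a helicase, rose from 15.3 ± 1.62 to 20.7 ± 1.39 CPM (0.43 ± 0.078, adjusted p = 8.15e-05). DNMT1, the maintenance DNA methyltransferase, rose from 127 ± 4.15 to 144 ± 2.37 CPM (0.18 ± 0.036, adjusted p = 0.000188). SAMHD1, which degrades deoxynucleotides, rose from 19.6 ± 0.523 to 24.5 ± 0.319 CPM (0.32 ± 0.062, adjusted p = 0.000206). With the trend removed these 3 were still called, RECQL4 at 0.22, adjusted p = 0.0129, DNMT1 at 0.078, adjusted p = 0.0493 and SAMHD1 at 0.34, adjusted p = 3.16e-05, and CDC7 was at -0.11, adjusted p = 0.0278.

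Genes that control passage from G1 to S had 13 lower and 2 higher of 26, with a median of -0.15. These are 50% and 7.69%, against 18.5% and 17.3% of all genes tested. CDKN1A, the p53-induced inhibitor of cyclin-dependent kinases, fell from 48.2 ± 1.36 to 33.2 ± 1.31 CPM (-0.54 ± 0.052, adjusted p = 4.34e-09). CCND2, a cyclin D, fell from 104 ± 1.54 to 81.8 ± 2.49 CPM (-0.34 ± 0.039, adjusted p = 7.65e-08), and RBL2, a relative of the retinoblastoma protein, fell too (-0.24 ± 0.043, adjusted p = 8.98e-05). RBL1, the other relative, rose (0.22 ± 0.061, adjusted p = 0.00576), as did CCND3 (0.29 ± 0.09, adjusted p = 0.013). Without SMG replicate 2, 0 genes of this list were called higher by edgeR's test, with 2 at an unadjusted p under 0.05, and without SMG replicate 1 the count was 1.

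Genes of mitosis had a lower median than the replication genes. Of 34 genes, 29 were lower (85.3%, against 18.5% of all genes tested) and 1 was higher (2.94%, against 17.3%), with a median of -0.31. In all, 24 of 34 (70.6%) differed by 1.2-fold or more, against 29.2% of all genes tested. TOP2A fell from 558 ± 27.2 to 429 ± 7.89 CPM (-0.38 ± 0.035, adjusted p = 1.33e-09) and TPX2, a spindle assembly factor, from 212 ± 4.32 to 166 ± 5.87 CPM (-0.36 ± 0.035, adjusted p = 5.23e-09). BUB1, a checkpoint kinase, fell from 69.9 ± 0.786 to 51.9 ± 2.03 CPM (-0.43 ± 0.045, adjusted p = 2e-08). FOXM1, a transcription factor of G2 genes, rose (0.19 ± 0.052, adjusted p = 0.00389), a call that ended with the trend removed (0.12, adjusted p = 0.0607). The summed level of the list was 3140 ± 35.1 CPM in NG and 2590 ± 15.8 CPM in SMG (SD), a change of -17.7% beside -3.82% for the replication members. With the trend removed, 29 mitosis genes were lower and the median was -0.225, while that of the members was -0.019. These were not all the same genes: CENPA, SPC25 and KIF11 were then not called, and MKI67, PLK1 and CDC20 were. The difference between the lists was not itself tested. CHR words were in 22 of 28 mitosis promoters (78.6%) and E2F words in 3 of 28 (10.7%), the reverse of the order in the members.

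**Figure D5:**
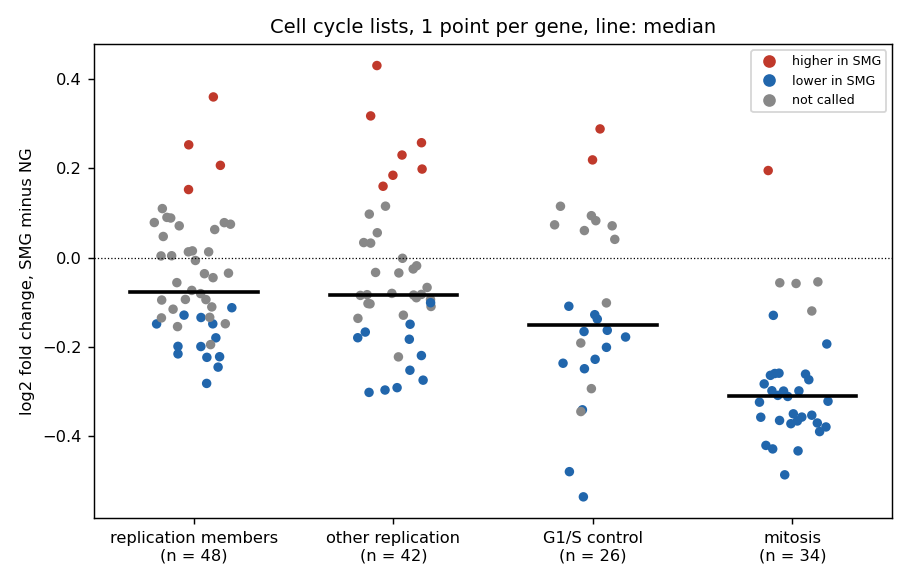
Log2 fold change of single genes (vertical axis, SMG minus NG) in 4 lists, with the median as a line and called genes in colour. The medians are -0.077 for the replication members, -0.084 for other replication genes, -0.15 for G1/S control and -0.31 for mitosis.

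Markers of the cells that could hold these transcripts were read against all genes tested, of which 18.5% were lower and 17.3% higher. Of 17 tested neural progenitor markers, 5 were lower (29.4%) and 2 higher (11.8%), with a median of -0.089. Their summed level was 4260 to 4470 CPM in NG and 4180 to 4330 CPM in SMG, which overlap. OLIG2, of motor neuron progenitors, fell from 113 ± 6.96 to 97.2 ± 3.42 CPM (-0.22 ± 0.042, adjusted p = 0.000155, and -0.33, adjusted p = 5.88e-08 with the trend removed), and SOX9 rose (0.15 ± 0.041, adjusted p = 0.00656). DBX2 had a count of 0 in at least 1 library. Of 8 motor neuron markers, 6 were higher (75%), with a summed level of 687 to 720 CPM in NG and 814 to 841 CPM in SMG. Of 11 general neuron markers, 3 were higher (27.3%) and 2 lower (18.2%). With the trend removed, 6 general neuron markers were higher and neither of the 2 lower calls held, 4 motor neuron markers were higher, and 1 progenitor marker was higher and 6 lower. In that fit 15.8% of all genes tested were higher and 15.1% lower. Among glial markers 3 of 8 were tested, and S100B had a count of 0 in at least 1 library. Pluripotency markers had 2 of 5 tested, with LIN28A lower (-0.17 ± 0.053, adjusted p = 0.0127). Mesenchymal markers summed to 3.78 to 3.88 CPM in NG and 2.36 to 3.50 CPM in SMG, and endothelial markers to 1.6 to 1.85 and 1.08 to 1.42 CPM. The part that these cells played in the members' values was not tested.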

How the data were processed

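The authors deposited raw counts for each Ensembl gene in each of the 6 libraries. Per the submitters' processing notes, the names listed are HISAT2, SAMtools, featureCounts, DESeq2 and the build hg19. The sources used here do not give what each was used for, or the versions, annotation, strandedness and handling of multi-mapping reads. Symbols came from a table of gene names and from GENCODE 29 (52338 of 57820 genes), which is built on another genome build and was used for names, lengths, GC content and exon overlaps alone. PCNA, RRM2, RPA2, TYMS, RFC3, RFC5, POLD2 and FEN1 have annotated pseudogenes, so their counts are uncertain.

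The members and lists were chosen with earlier results of these data known. Genes were filtered with filterByExpr, scaled by TMM and tested with edgeR 4.0.16 (glmQLFit with robust estimation, glmQLFTest) in R 4.3.3, with Benjamini-Hochberg adjustment over all 17803 genes tested. Text values were given per library for up to 4 members per role by adjusted p and for members that stood apart in direction, and for up to 3 genes per direction of each related list. Alternatives were DESeq2 1.42.0, limma-voom (limma 3.58.1), 3 other scalings, 2 other filters, no robust estimation, protein-coding genes alone, removal of the length and GC trend (natural splines with 4 df per covariate, as offsets), a replicate block, and each library left out. Chi-square tests within each group gave 1.6 to 3.38 per degree of freedom, above sampling noise, so each library was kept as 1 sample. The scripts were tested on simulated data. The value of 1 marker gene is not reported here.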

Additional observations from a re-analysis of the deposited data

How the results depend on the processing

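Counts of lower members were 8 with DESeq2, 7 with the length and GC trend removed and 7 to 12 without each library in turn, and those of higher members 2 with the trend removed. Over all genes, lower calls were 3296 in the main fit, 2270 with DESeq2, 2595 with the trend removed and 2549 to 3107 without each library. Higher calls over all genes were 3080 in the main fit and 2718 with the trend removed. The members' median was -0.057 with library size scaling, -0.066 without a filter, -0.019 with the trend removed and -0.065 when only protein-coding genes were fitted, where the spread between SMG libraries was 0.0086. In the same order, the median over all genes tested was 0.0198, 0.001, 0.0088 and -2e-04, beside -2e-04 in the main fit. With library size scaling the median over all genes thus moved up with that of the members. The leave-one-out medians were -0.0772 to -0.0705. Mitosis genes called higher were 0 with the trend removed. G1/S control genes called higher were 5 with the trend removed, 1 with DESeq2 and 0 to 2 without each library. GMNN turned from -0.15 to 0.0089 and PCNA from -0.11 to 0.024 with the trend removed, both then past no threshold. The cause of these changes was not tested. Same-numbered libraries showed no shared deviation (correlation of deviations -0.067, 0.059 and -0.026 over 10953 genes), where pairs with unlike numbers ranged from -0.105 to 0.131. With 3 libraries per group this cannot show whether the numbers pair the samples. With the replicate block, 1 member call of 17 was lost, that of POLA1. With the replicate block and the trend removed together, 7 members were lower and 2 higher, with a median of -0.017, 0 mitosis and 4 G1/S control genes were higher, GMNN was at 0.0064 and PCNA at 0.026. The 48 members kept both side of the threshold and direction under DESeq2 size factors, limma-voom, no robust estimation and the filter of 1 CPM.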
